A study of Mus musculus with 24 samples.

Results

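Chromatin accessibility was followed at 32 mouse genes that carry dietary fat and sterols through the small intestinal epithelium, from fatty acid uptake to lipoprotein export and cholesterol control. A peak was assigned to one of these genes where the deposited peak annotation gave its name and placed the peak within 50000 bp of an annotated start. Peaks within 1000 bp of that start are called promoter peaks and the others distal peaks. This gave 198 of the 150646 consensus peaks, 36 of them promoter peaks (of 19933 in all) and 162 distal peaks (of 107845), at 31 of the 32 genes. Abca1, the cholesterol exporter, had none within that distance. The accessibility assay was ATAC-seq, in which a transposase inserts sequencing adapters into open DNA, so that a peak is a stretch of open chromatin. It compared aged with young C57BL/6JRj mice. Epithelial cells of both ages were freed with EDTA and trypsin, sorted as EpCam+ CD45- cells and amplified with 17 PCR cycles, with no genotype or treatment difference named. The series gives 20 to 22 months for aged and 2 to 3 months for young animals, in text that describes its other assays. Libraries aged 1, aged 2 and aged 4 were set against young 1, young 2 and young 4 (n = 3 per age). No label ties a library to its own animal, so that each p-value measures the spread between these libraries, which may be technical.

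Absorbed fatty acids and monoacylglycerol are rebuilt into triacylglycerol inside the enterocyte, loaded onto apolipoprotein B in the endoplasmic reticulum and sent out as chylomicrons. Sterols enter through a brush border transporter, are esterified for export or are pumped back into the lumen. The cell's own sterol supply is set by membrane-bound SREBP factors, and by liver X receptors that sense oxysterols.

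Promoter sequence is shown for the genes whose 250 bases before the RefSeq start (GRCm38.p6) held the letters of GATA, HNF1, SREBP or CDX factors, which act in intestinal or sterol-regulated transcription. RefSeq windows matched 25 of the 32 genes (not Mogat2, Dgat1, Dgat2, Apoc3, Tm6sf2, Soat2 or Scarb1), with 30 windows because some genes have several starts. Capitals mark every match, on either strand, to the letters that were searched. The GATA family was searched as AGATAA. Letters used for the HNF1 factors were GTTAATNAT, and those used for SREBP were TCACNCCAC. The search for CDX factors used CCATAAA. For the NF-Y complex the letters CCAAT were taken, and for one arm of a PPAR element AGGTCA. The E-box was searched as CACGTG, and the receptor HNF4 as CAAAGTCCA. Sequences read from 5′ to 3′ on the strand of the gene, at chr17:84683012-84683261 (minus strand) for Abcg5, chr17:84682871-84683120 (plus strand) for Abcg8, chr11:6230246-6230495 (minus strand) for Npc1l1, chr13:119690101-119690350 (plus strand) for Hmgcs1, chr6:71199629-71199878 (plus strand) for Fabp1 and chr10:81092592-81092841 (minus strand) for Creb3l3.
Abcg5: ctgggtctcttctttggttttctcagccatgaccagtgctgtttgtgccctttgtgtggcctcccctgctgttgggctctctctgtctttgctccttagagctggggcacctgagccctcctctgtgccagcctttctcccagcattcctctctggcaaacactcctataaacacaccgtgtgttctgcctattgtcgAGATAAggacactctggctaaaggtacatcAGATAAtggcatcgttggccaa
Abcg8: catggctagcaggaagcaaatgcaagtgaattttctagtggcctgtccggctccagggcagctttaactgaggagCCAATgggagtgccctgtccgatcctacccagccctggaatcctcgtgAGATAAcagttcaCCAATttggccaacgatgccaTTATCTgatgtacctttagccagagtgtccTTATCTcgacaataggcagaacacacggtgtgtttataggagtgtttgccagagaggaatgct
Npc1l1: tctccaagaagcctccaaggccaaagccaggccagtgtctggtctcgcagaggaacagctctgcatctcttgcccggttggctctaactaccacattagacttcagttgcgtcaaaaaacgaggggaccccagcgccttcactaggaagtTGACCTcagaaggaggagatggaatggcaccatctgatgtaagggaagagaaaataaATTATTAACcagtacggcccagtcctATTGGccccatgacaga
Hmgcs1: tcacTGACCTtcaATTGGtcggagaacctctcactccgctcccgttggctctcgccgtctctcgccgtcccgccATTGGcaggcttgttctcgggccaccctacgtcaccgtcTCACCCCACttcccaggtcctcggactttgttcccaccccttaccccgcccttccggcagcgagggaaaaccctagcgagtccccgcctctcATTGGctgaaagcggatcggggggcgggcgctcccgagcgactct
Fabp1: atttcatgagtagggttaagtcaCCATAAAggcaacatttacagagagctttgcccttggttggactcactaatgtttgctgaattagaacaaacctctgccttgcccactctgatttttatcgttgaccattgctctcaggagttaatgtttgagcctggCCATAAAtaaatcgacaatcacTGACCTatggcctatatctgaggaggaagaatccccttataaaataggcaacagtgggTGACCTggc
Creb3l3: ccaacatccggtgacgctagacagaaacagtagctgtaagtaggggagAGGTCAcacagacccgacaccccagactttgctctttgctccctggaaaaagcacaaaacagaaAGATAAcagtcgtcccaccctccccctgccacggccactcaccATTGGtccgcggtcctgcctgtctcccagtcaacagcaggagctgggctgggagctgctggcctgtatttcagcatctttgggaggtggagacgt
All 6 windows lay whole inside a consensus peak.

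Abcg5 and Abcg8, which encode the subunits of the sterol pump, point away from each other, and their windows share bases. The AGATAA letters 22 and 52 bases before the Abcg5 start are the same genomic bases as those 93 and 63 bases before the Abcg8 start, and the Abcg8 window holds another match 127 bases before its start. AGATAA occurred in 3 of the 30 windows of these genes, which include both of that pair and Creb3l3, and in 9.99% of 32851 mouse windows of the same length. The SREBP letters occurred in 1 of 30 windows, at Hmgcs1 137 bases before the start between CCAAT matches, against 1.05% of all windows. The HNF1 letters occurred only at Npc1l1, 43 bases before the start, against 0.737% of all windows. The CDX letters occurred only at Fabp1, 89 and 227 bases before the start, against 2.43%. CCAAT occurred in 13 of 30 windows against 33.9% of all, the PPAR arm in 6 of 30 against 14.0%, the E-box in 2 of 30 against 6.02%, and the HNF4 letters in 0 of 30 against 0.384%. These are matches to letters, not measured binding.

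Aged 2 was the deepest library, with 23935291 counts over all peaks, and young 4 the shallowest, with 6149680. In CPM, which are scaled for depth, young 4 gave the lowest of the 6 values at 10 of 25 promoter sums, against 26.9% of all genes. It did so at 14 of 30 distal sums, against 23.1% of all genes. Whether depth bears on these ranks was not tested. Aged 2 gave the lowest value at 7 of 30 distal sums, against 12.5% of all genes. Both libraries' part in the results was not tested beyond leaving each out.

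Together, peaks of the fat and sterol genes took a similar share of the counts at both ages, a sum in which opposite changes would cancel. The 198 peaks took 0.240% of all peak counts in aged libraries (0.229 to 0.251%) and 0.235% in young libraries (0.228 to 0.246%; n = 3 each). In edgeR, with p-values from the quasi-likelihood test adjusted over all peaks by Benjamini and Hochberg, 0 of the 36 promoter peaks were called at an adjusted p below 0.05, where 1.44% of all tested promoter peaks were called. At an unadjusted p below 0.05 there were 2 of 36, against 6.8% of all promoter peaks, and DESeq2 called 0, against 0.978% of all. Of the 148 distal peaks that passed the filter on low counts, 1 was called, higher in aged libraries, where 1.59% of all distal peaks were called. At an unadjusted p below 0.05 there were 9 of 148, against 8.97% of all, and DESeq2 called the same single peak, against 0.817% of all. The median log2 fold change (aged over young) was -0.01 for the promoter peaks and 0.01 for the tested distal peaks. Over all features it was -0.01 for promoter peaks and 0.00 for distal peaks. Median sizes of change, whatever the sign, were 0.08 on the log2 scale at the promoter peaks (all promoter peaks 0.11) and 0.14 at the distal peaks (all distal peaks 0.17). The other 14 distal peaks of these genes fell under the filter and have no test. The ages did not overlap at 7 of the 36 promoter peaks, against 11.2% of all tested promoter peaks. At the distal peaks this held for 15 of 148, against 14.3% of all tested distal peaks. Separation by age at a peak named below is to be read beside these shares, which are not given for sums.

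**Figure D1:**
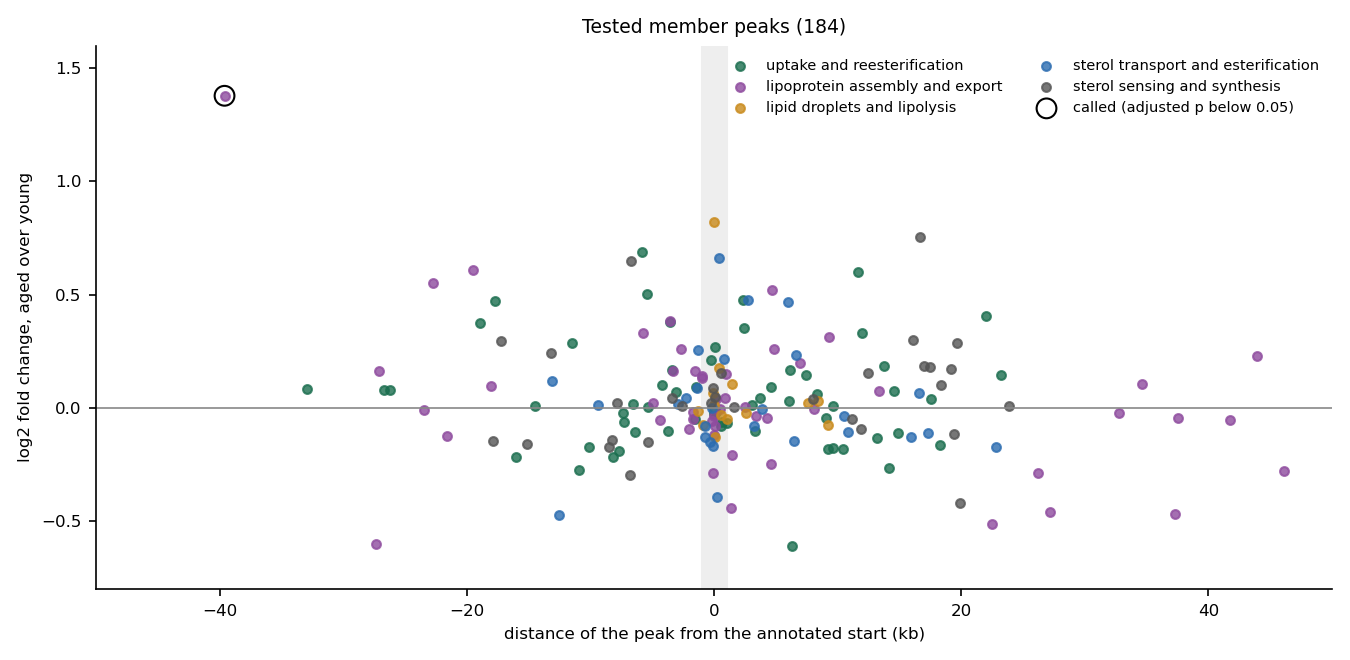
Log2 fold change (aged over young) of each of the 184 tested peaks against its distance from the annotated start in kb, coloured by role, with the promoter range of 1 kb on either side shaded. Most points lie near 0 at every distance, and the 1 called peak, circled, stands 39631 bp upstream of Apob at a log2 fold change of 1.38.

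Same-numbered libraries of the 2 ages deviated together, so that the fit with the replicate number as a block is given where it changes a call. It called 2 of the 36 promoter peaks, at Pnpla2 and Abcg8, where it called 2.62% of all promoter peaks. It called 5 of the 148 distal peaks, at Apob, Creb3l3, Mogat2, Tm6sf2 and Apoa4, where it called 3.09% of all distal peaks. The Apoa4 peak was lower in aged libraries and the other 6 were higher.

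Counts were also summed per gene, over its promoter peaks and over its distal peaks, and tested among all genes. Values of sums are given in CPM, the counts scaled to a common total of all promoter or all distal counts, so they are not on the scale of single peaks. Of 25 promoter sums 0 were called, where 1.74% of 13869 genes were, and 3 had an unadjusted p below 0.05 (Pnpla2, Agpat2 and Creb3l3, all higher in aged libraries), against 8.92% of all genes. DESeq2 called 0 of 25, against 1.41% of all. Of 30 distal sums 0 were called, where 1.72% of 23935 genes were, and 3 had an unadjusted p below 0.05 (Creb3l3 and Apob, higher, and Apoa4, lower), against 9.68% of all. DESeq2 again called 0 of 30, against 1.47% of all. With the replicate block, 1 of 25 promoter sums (Pnpla2) and 2 of 30 distal sums (Creb3l3 and Apob) were called, where 3.34% and 4.56% of all genes were. Median log2 fold changes were -0.0028 for the promoter sums (all genes -0.0016) and 0.04 for the distal sums (all genes -0.0034).

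**Figure D2:**
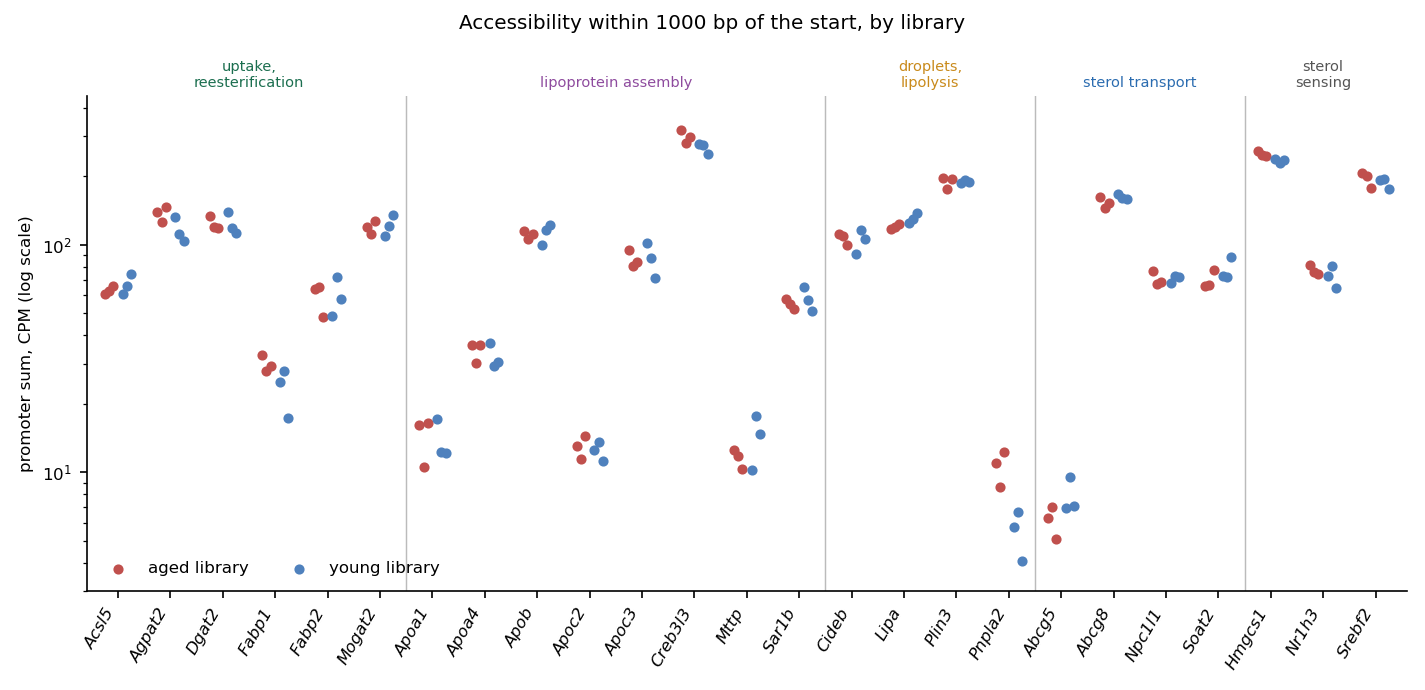
Promoter sums of 25 genes in CPM of all promoter counts, on a log axis, with 1 point per library, the 3 aged libraries left of the 3 young ones and genes ordered by role. The ages overlap or nearly touch at most genes, and Pnpla2 has aged libraries at 8.63 to 12.3 CPM above young libraries at 4.05 to 6.71 CPM.

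Levels differed far more between genes than between ages. Per kilobase of peak, the most open promoters over the 6 libraries were Hmgcs1 (303 CPM per kb), whose enzyme makes the HMG-CoA used for sterol synthesis, Lipa (246), the lysosomal lipase, and Creb3l3 (201.5). They stood at the 97.7, 94.7 and 90.04 percentile of all promoters. The least open were Apoc2 (39.2), which encodes the activator of lipoprotein lipase, Fabp1 (44.2) and Pnpla2 (57.2), at the 29.7, 32.9 and 40.6 percentile. For Apoc2 and Pnpla2 the ranked peak is not the one over the RefSeq start. As single peaks, the Apoc2 peak over the RefSeq start (509 bp) had 29.3 CPM per kb and the ranked one 13.2, and the Pnpla2 peak over the RefSeq start had 40.7 CPM per kb and the ranked one 19.3.

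Of the 8 uptake and reesterification genes, 6 had a promoter peak, and 0 of these promoter sums and 0 of the 8 distal sums were called. Promoter log2 fold changes were above 0 for 2 and below 0 for 4, with a median of -0.0073, and distal ones were above 0 for 6 of 8 with a median of 0.07. Agpat2, the acyltransferase that makes phosphatidic acid, had promoter sums of 139, 126 and 147 CPM in aged libraries and 133, 111 and 103 CPM in young libraries. The aged libraries overlapped the young ones, since young 1 exceeded aged 2. The log2 fold change was 0.22 (SE 0.08; edgeR adjusted p = 0.351), and without young 1 it passed the threshold (edgeR adjusted p = 0.0454).

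Fabp1, the liver-type fatty acid-binding protein, had promoter sums of 32.8, 27.8 and 29.3 CPM in aged libraries and 25.0, 27.7 and 17.2 CPM in young libraries. Aged 2 and young 2 nearly coincided and young 4 lay far below the rest, and the log2 fold change of 0.29 (SE 0.15) was not called (edgeR adjusted p = 0.653). The intestinal form, Fabp2, averaged 59.0 ± 9.40 CPM in aged libraries and 59.7 ± 12.0 CPM in young libraries (SD, n = 3 each). Acsl5, which activates fatty acids to acyl-CoA, averaged 63.3 ± 2.53 CPM in aged and 67.2 ± 6.80 CPM in young libraries. The groups of both genes overlapped. The Acsl5 promoter peak lies over no RefSeq promoter window and is not annotated as an Acsl5 promoter.

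The acyltransferases on the way from monoacylglycerol to triacylglycerol showed the same overlap at their promoters. Mogat2, which acylates monoacylglycerol, averaged 119.6 ± 8.09 CPM in aged and 121.9 ± 13.5 CPM in young libraries, and Dgat2 averaged 123.8 ± 8.34 CPM in aged and 123.6 ± 14.2 CPM in young libraries. Mogat2 nevertheless held one of the smallest p-values of all 184 peaks, in an intron 11654 bp past its annotated start (chromosome 7, 99226740 to 99227141). Single-peak values there were 10.5, 7.31 and 9.94 CPM in aged libraries and 7.78, 4.71 and 5.26 CPM in young libraries. Young 1 exceeded aged 2, so the ages overlapped.

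That Mogat2 peak had a log2 fold change of 0.60 (SE 0.18; edgeR adjusted p = 0.115), and with the replicate block it was called (edgeR adjusted p = 0.00343). It also passed the threshold without aged 2 (edgeR adjusted p = 0.0218) and without young 1 (edgeR adjusted p = 0.00497). The other 11 tested Mogat2 peaks lay between -0.28 and 0.69 on the log2 scale, 5 of them above 0. The second smallest distal p of the group belonged to an Agpat2 peak 3562 bp upstream (chromosome 2, 26607228 to 26607748), annotated to an intron of another gene ID and lying outside Agpat2 in RefSeq. It had 18.3, 18.5 and 27.5 CPM in aged libraries and 16.9, 17.0 and 14.8 CPM in young libraries, all aged above all young, with a log2 fold change of 0.38 (SE 0.14) that was not called (edgeR adjusted p = 0.286).

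Dgat1 and Slc27a4 had no peak within 1000 bp of the start that the table uses, and were described by their distal sums. Dgat1, which shares the last acylation step with Dgat2, averaged 184.8 ± 14.3 CPM in aged and 202.7 ± 21.3 CPM in young libraries, with a log2 fold change of -0.13 (SE 0.09). Slc27a4, a fatty acid transport protein with acyl-CoA synthetase activity, averaged 84.1 ± 5.32 CPM in aged and 77.6 ± 6.56 CPM in young libraries. Both genes' ages overlapped.

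**Figure D3:**
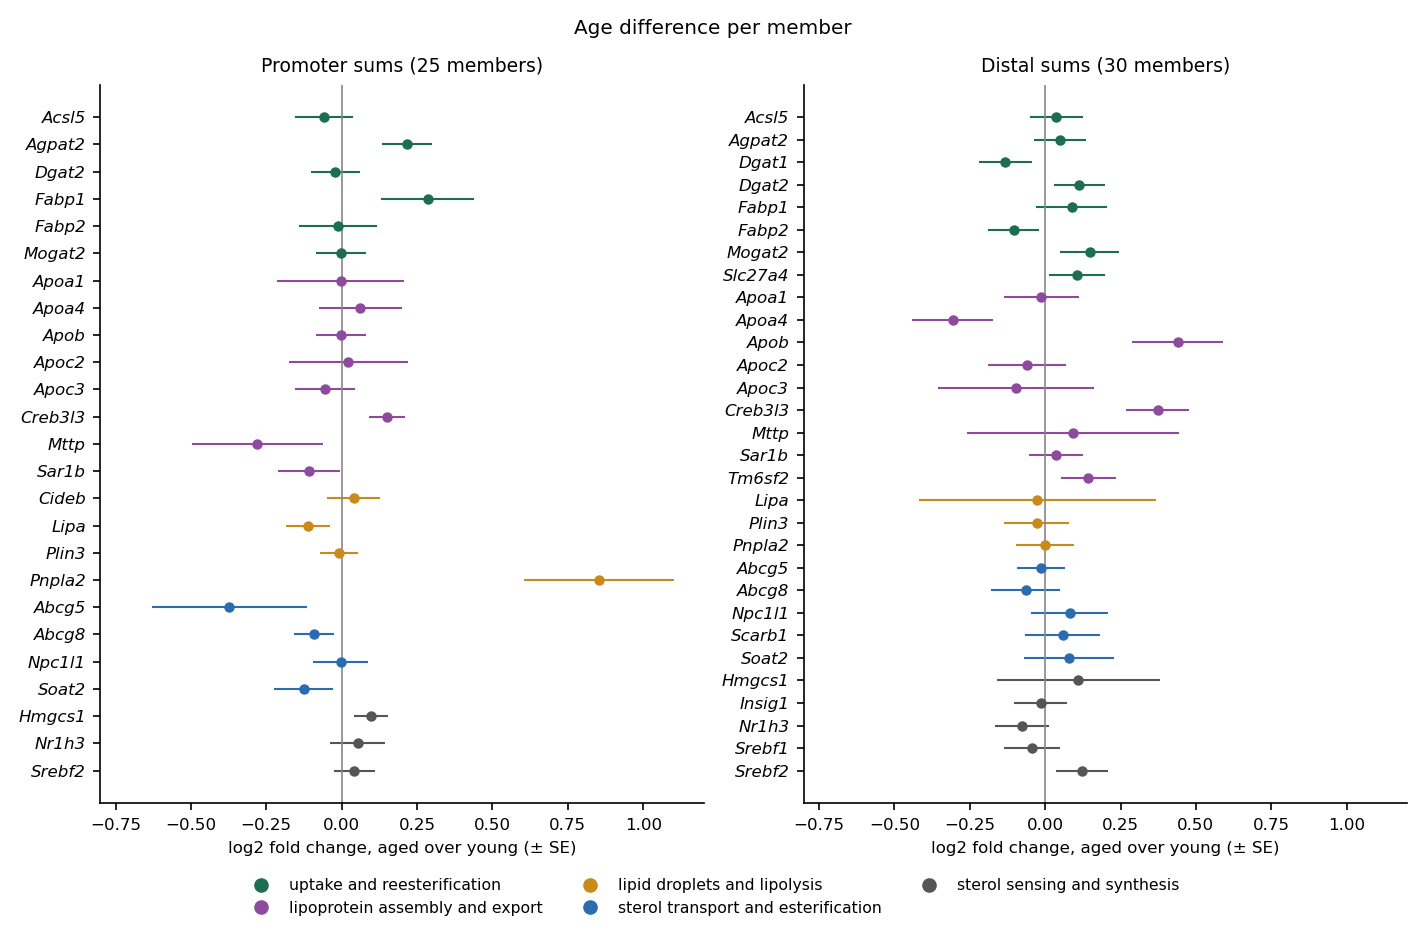
Log2 fold change (aged over young) with its SE for the 25 promoter sums (left) and the 30 distal sums (right), coloured by role. Most SE bars cross or come near 0. Pnpla2 stands apart at the promoters at 0.85, and Apob (0.44), Creb3l3 (0.37) and Apoa4 (-0.31) at the distal peaks.

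Of the 9 lipoprotein assembly and export genes, 8 had a promoter peak, and 0 of these promoter sums and 0 of the 9 distal sums were called. The 1 called peak and all 3 distal sums with an unadjusted p below 0.05 lay in this group. Apob encodes the structural protein of the chylomicron. Its called peak is intergenic, at chromosome 12, 7937825 to 7938209, 39631 bp upstream of the start. Apob is the nearest protein-coding gene in RefSeq on one side, and on the other side the next, Klhl29, lies 2562143 bp away.

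The peak had 2.16, 2.17 and 3.46 CPM in aged libraries and 1.05, 0.743 and 1.43 CPM in young libraries, from 35, 52 and 61 counts in aged and 23, 15 and 9 counts in young libraries. Every aged library exceeded every young one, at a log2 fold change of 1.38 (SE 0.30; edgeR adjusted p = 0.00787). The call was lost without aged 4 (log2 fold change 1.12, edgeR adjusted p = 0.110) and without young 2 (1.14, edgeR adjusted p = 0.158).

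At the promoter no such difference was seen. Apob promoter sums averaged 110.8 ± 4.65 CPM in aged and 112.7 ± 11.7 CPM in young libraries (SD, n = 3 each), with overlap and a log2 fold change of -0.0028 (SE 0.08; edgeR adjusted p = 0.997). Over its 8 distal peaks the sums were 21.1, 17.7 and 22.2 CPM in aged libraries and 16.6, 12.5 and 16.1 CPM in young libraries. All aged values stood above all young ones, and the log2 fold change of 0.44 (SE 0.15) was not called (edgeR adjusted p = 0.21) but was with the replicate block (edgeR adjusted p = 0.0341). The called peak enters these sums, so their separation by age is not independent of it. Of the 10 tested Apob peaks 8 were above 0, and the lowest, 27386 bp upstream, had -0.60 (SE 0.48) on 5 to 13 counts per aged library and 3 to 16 per young library.

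Creb3l3 encodes CREB-H, a factor held in the endoplasmic reticulum membrane that activates apolipoprotein genes once cleaved. All 5 of its tested peaks had log2 fold changes above 0, between 0.14 and 0.52. The peak 9297 bp past the start, which enters the distal sums, lies inside the neighbouring gene Thop1 in RefSeq. The promoter sums, which include the sequence shown for this gene, were 321, 281 and 299 CPM in aged libraries and 278, 275 and 251 CPM in young libraries. Every aged library exceeded every young one, by a small margin, with a log2 fold change of 0.15 (SE 0.06; edgeR adjusted p = 0.375).

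The distal sums of Creb3l3 were 151, 114.5 and 148 CPM in aged libraries and 119, 97.7 and 101 CPM in young libraries. Young 1 exceeded aged 2, so the ages overlapped. The log2 fold change was 0.37 (SE 0.10; edgeR adjusted p = 0.0799), and it was called with the replicate block (edgeR adjusted p = 0.00034), without aged 2 (edgeR adjusted p = 0.0153) and without young 1 (edgeR adjusted p = 0.00809). Leaving out the other libraries in turn left it uncalled, up to an edgeR adjusted p of 0.446.

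Most of those counts came from an intronic peak 3565 bp upstream of the start the table uses (chromosome 10, 81095204 to 81095738), inside the Creb3l3 gene body in RefSeq. It had 65.9, 50.9 and 67.4 CPM in aged libraries and 51.9, 43.1 and 45.4 CPM in young libraries. Aged 2 lay just under young 1, and the others did not overlap. The log2 fold change was 0.38 (SE 0.12; edgeR adjusted p = 0.125), and the peak was called with the replicate block (edgeR adjusted p = 8.54e-05) and without young 1 (edgeR adjusted p = 0.018).

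**Figure D4:**
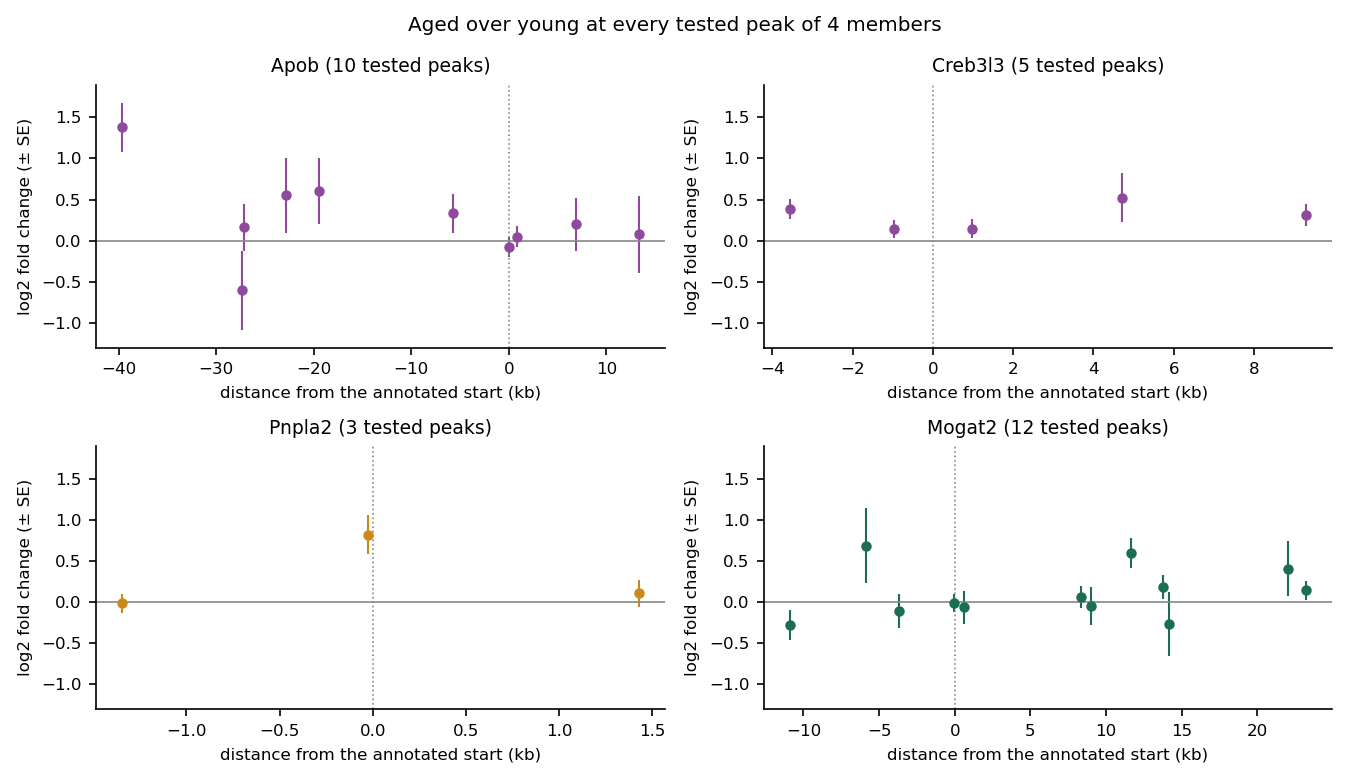
Log2 fold change (aged over young, ± SE) at every tested peak of Apob, Creb3l3, Pnpla2 and Mogat2 against distance from the annotated start in kb, each panel with its own distance range. The 5 Creb3l3 peaks all lie above 0, whereas Apob and Mogat2 have peaks on both sides of 0. For Pnpla2 the peak at -26 bp stands at 0.82 and the peak at -1345 bp at -0.01.

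Apoa4, an apolipoprotein made on fat absorption, was the only gene of the 3 with lower distal signal in aged libraries. Its distal sums were 24.8, 20.2 and 22.9 CPM in aged libraries and 32.5, 25.7 and 24.2 CPM in young libraries, overlapping through aged 1 and young 4. The log2 fold change was -0.31 (SE 0.14; edgeR adjusted p = 0.435). The peak with the smallest p there lies inside Apoa4 in RefSeq, 1365 bp past the start (chromosome 9, 46241861 to 46242261), and is annotated to the end of a transcript with another gene ID.

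That Apoa4 peak had 8.75, 8.78 and 8.18 CPM in aged libraries and 12.0, 12.5 and 9.71 CPM in young libraries. No aged library reached a young one. The log2 fold change was -0.44 (SE 0.14; edgeR adjusted p = 0.155), and only the fit with the replicate block called it (edgeR adjusted p = 0.0427). The Apoa4 promoter sums averaged 34.3 ± 3.60 CPM in aged and 32.3 ± 4.13 CPM in young libraries and overlapped.

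The ages also overlapped at the promoters of the other apolipoprotein genes. Apoa1, the main protein of high-density lipoprotein, averaged 14.3 ± 3.33 CPM at its promoter in aged and 13.8 ± 2.81 CPM in young libraries. Apoc3, an inhibitor of lipoprotein lipase, averaged 86.6 ± 7.58 CPM in aged and 87.0 ± 15.4 CPM in young libraries. Apoc2 had 13.1, 11.4 and 14.4 CPM in aged libraries and 12.6, 13.6 and 11.2 CPM in young libraries, with a log2 fold change of 0.02 (SE 0.20) whose sign turned under several alternatives.

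Mttp loads lipid onto apolipoprotein B, and had the smallest promoter p of the group after Creb3l3. Its promoter sums were 12.6, 11.8 and 10.3 CPM in aged libraries and 10.2, 17.8 and 14.7 CPM in young libraries. Young 1 was the lowest of the 6, so the ages overlapped, and the log2 fold change of -0.28 (SE 0.22) was not called (edgeR adjusted p = 0.82). Sar1b, the GTPase of the coat that carries chylomicrons out of the endoplasmic reticulum, averaged 55.0 ± 2.69 CPM in aged and 58.0 ± 7.05 CPM in young libraries at its promoter. Tm6sf2, which acts in lipoprotein lipidation, has distal peaks only, with sums of 161.9 ± 17.3 CPM in aged and 145.6 ± 12.9 CPM in young libraries. Its peak at -2650 bp (log2 fold change 0.26, SE 0.12; edgeR adjusted p = 0.512) was called with the replicate block (edgeR adjusted p = 0.0483).

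Of the 4 lipid droplet and lipolysis genes all had a promoter peak, and 0 of these promoter sums and 0 of 3 distal sums were called. Pnpla2 encodes adipose triglyceride lipase, which starts the breakdown of droplet fat. Its promoter sum is a single peak of 141 bp (chromosome 7, 141456922 to 141457062) with 10.99, 8.63 and 12.3 CPM in aged libraries and 5.73, 6.71 and 4.05 CPM in young libraries, from 63, 69 and 70 counts in aged and 46, 45 and 8 counts in young libraries. All aged values stood above all young ones, at a log2 fold change of 0.85 (SE 0.25; edgeR adjusted p = 0.0996). With the replicate block it was called (0.81, edgeR adjusted p = 0.0221), and leaving out each library gave edgeR adjusted p-values of 0.0820 to 0.346. Tested as a single peak it had 0.82 (SE 0.24; edgeR adjusted p = 0.0805), and it passed the threshold without aged 2 (edgeR adjusted p = 0.0344).

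This small peak is not where RefSeq places the Pnpla2 start. RefSeq begins the gene at 141455188, inside a peak of 1355 bp (141454996 to 141456350) that the deposited table puts at -1345 bp, whereas the small peak begins 1734 bp past the RefSeq start. The large peak had 59.8, 54.2 and 51.2 CPM in aged libraries and 63.3, 52.7 and 49.5 CPM in young libraries. The ages overlapped fully, with a log2 fold change of -0.01 (SE 0.11; edgeR adjusted p = 0.996). The difference at Pnpla2 was thus measured inside the gene and not at the RefSeq promoter. The remaining peak, at 1428 bp, had 8.44, 7.48 and 6.99 CPM in aged libraries and 6.36, 7.68 and 7.33 CPM in young libraries, also overlapping (edgeR adjusted p = 0.957).

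Lipa frees fatty acids and cholesterol from esters in the lysosome. Its promoter sums were 117, 120.0 and 124 CPM in aged libraries and 125, 131 and 137 CPM in young libraries. Every aged library lay below every young one, by a small margin, and the log2 fold change of -0.11 (SE 0.07) was not called (edgeR adjusted p = 0.757). Cideb, a droplet protein that also lipidates lipoproteins, averaged 107 ± 6.07 CPM in aged and 105 ± 12.3 CPM in young libraries. Plin3, a droplet coat protein, averaged 189 ± 11.4 CPM in aged and 190.0 ± 2.94 CPM in young libraries. Its distal peak at 1016 bp, at 5.24, 5.68 and 6.93 CPM in aged and 6.32, 6.49 and 5.26 CPM in young libraries, lay just outside the promoter range and had a log2 fold change of -0.05 (SE 0.17).

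Of the 6 sterol transport and esterification genes, 4 had a promoter peak and 5 a distal sum, and 0 were called. All 4 promoter log2 fold changes were below 0, with a median of -0.11, and 3 of 5 distal ones were above 0, with a median of 0.06. Abcg5 and Abcg8 form the pump that returns sterols to the lumen. Abcg8 promoter sums, which hold the shared GATA stretch shown for the pair, were 162, 146 and 152 CPM in aged libraries and 168, 161 and 159 CPM in young libraries. Aged 1 exceeded 2 of the young libraries, and the log2 fold change of -0.09 (SE 0.07) was not called (edgeR adjusted p = 0.803).

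The table's Abcg5 promoter is a peak of 102 bp (chromosome 17, 84676181 to 84676282) that lies apart from the shared start region. It lies inside the window before another RefSeq start of Abcg8, and is annotated as an Abcg8 promoter. Its sums were 6.28, 7.001 and 5.08 CPM in aged libraries and 6.97, 9.55 and 7.10 CPM in young libraries. Aged 2 just exceeded young 1, and the log2 fold change was -0.37 (SE 0.26; edgeR adjusted p = 0.79). A peak of the region that ran the other way lay 403 bp past the Abcg8 start (chromosome 17, 84683434 to 84683635) and was annotated as an Abcg5 promoter. It had 3.33, 4.01 and 3.07 CPM in aged libraries and 2.33, 2.28 and 1.75 CPM in young libraries. All aged values were above all young ones, with a log2 fold change of 0.66 (SE 0.23; edgeR adjusted p = 0.199), called with the replicate block (edgeR adjusted p = 0.0468). The larger peak beside it, which covers the RefSeq starts of the Abcg5 and Abcg8 windows shown, had -0.17 (SE 0.12; edgeR adjusted p = 0.811). The peak 760 bp past the Abcg8 start was also above 0, at 0.22 (SE 0.26; edgeR adjusted p = 0.94), and its ages overlapped.

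The smallest distal p-values of the sterol transporters were at the same pair. An intronic Abcg5 peak 2741 bp past the start had 3.82, 3.18 and 2.67 CPM in aged libraries and 2.52, 2.58 and 1.27 CPM in young libraries, and an intronic Abcg8 peak 5966 bp past the start had 4.44, 3.01 and 3.12 CPM in aged libraries and 3.07, 2.63 and 1.12 CPM in young libraries. Young 4 was the lowest library at both, with 8 and 7 counts, and neither was called (edgeR adjusted p = 0.59 and 0.629). Npc1l1, the cholesterol importer of the brush border, averaged 70.8 ± 5.204 CPM at its promoter in aged and 71.0 ± 2.42 CPM in young libraries. Soat2, which esterifies cholesterol for chylomicrons, averaged 70.0 ± 6.44 CPM in aged and 78.1 ± 9.18 CPM in young libraries, and Scarb1, a receptor for high-density lipoprotein, had distal sums of 26.7 ± 1.63 CPM in aged and 25.1 ± 3.04 CPM in young libraries. The ages overlapped at all 3.

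Of the 5 sterol sensing and synthesis genes, 3 had a promoter peak and all had distal sums, and 0 were called. The 3 promoter log2 fold changes were above 0, with a median of 0.05, and distal ones were above 0 for 2 of 5 with a median of -0.01. Hmgcs1, whose window holds the SREBP letters, had promoter sums of 258, 248 and 245 CPM in aged libraries and 238, 228 and 237 CPM in young libraries. Every aged library exceeded every young one, by a margin that the test did not call (log2 fold change 0.10, SE 0.06; edgeR adjusted p = 0.706). Its 4 distal peaks held few counts, at 4.02 ± 1.04 CPM in aged and 3.52 ± 1.14 CPM in young libraries.

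Srebf2 encodes the SREBP that drives cholesterol synthesis. Its promoter sums were 208, 199.9 and 177 CPM in aged libraries and 193, 195 and 176 CPM in young libraries, overlapping, with a log2 fold change of 0.04 (SE 0.07; edgeR adjusted p = 0.94). A peak 6702 bp upstream (chromosome 15, 82140419 to 82140710), inside the neighbouring gene Ccdc134, had 3.58, 4.39 and 4.77 CPM in aged libraries and 2.38, 3.22 and 2.39 CPM in young libraries. No young library reached an aged one, but the log2 fold change of 0.65 (SE 0.21) was not called (edgeR adjusted p = 0.169, and 0.0663 with the replicate block).

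Srebf1 encodes the SREBP tied mainly to fatty acid synthesis, and Insig1 retains SREBPs in the endoplasmic reticulum when sterols are plentiful. Both had distal sums without separation, at 143 ± 14.9 CPM in aged and 147 ± 14.7 CPM in young libraries for Srebf1 and 189, 167.5 and 160.0 CPM in aged and 191, 168 and 161 CPM in young libraries for Insig1. The Srebf1 peak with the smallest p, in an intron at -6837 bp, had 7.40, 7.10 and 5.91 CPM in aged libraries and 7.78, 8.91 and 8.44 CPM in young libraries. Aged values were all lower, with a log2 fold change of -0.30 (SE 0.16; edgeR adjusted p = 0.639). Nr1h3, the liver X receptor alpha, averaged 77.0 ± 3.79 CPM at its promoter in aged and 72.8 ± 8.24 CPM in young libraries, overlapping.

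**Figure D5:**
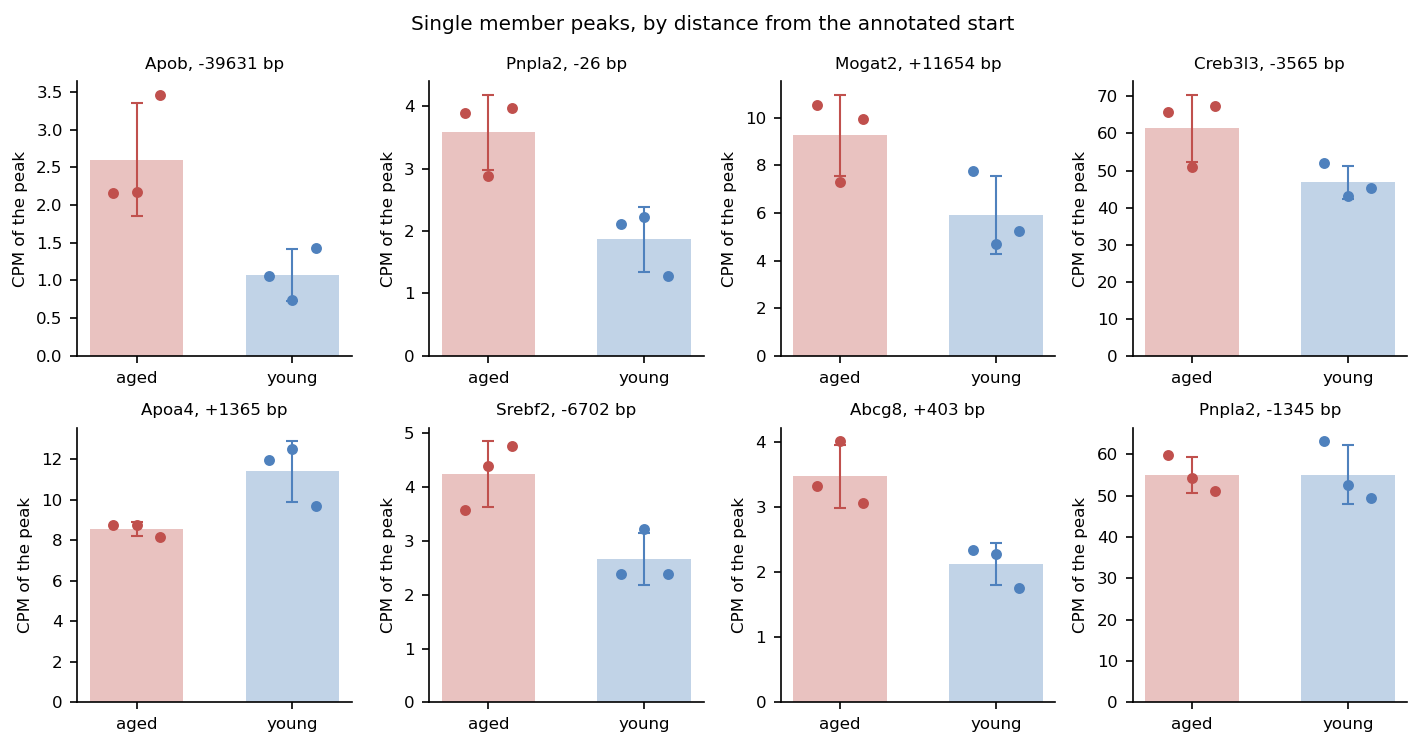
CPM of 8 single peaks, with bars at the mean, error bars of 1 SD and 1 point per library (n = 3 per age, aged left). The peaks are the tested ones with the smallest p, plus the peak over the RefSeq start of Pnpla2. Separation by age therefore follows in part from that choice. Aged libraries lie above young ones at the Apob, Srebf2, Abcg8 and Pnpla2 (-26 bp) peaks and below them at the Apoa4 peak. They overlap at the Creb3l3 and Mogat2 peaks and at the peak over the RefSeq start of Pnpla2 (-1345 bp).

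The deposited distances are measured to one start per peak, and 7 of the 32 genes (Slc27a4, Dgat1, Tm6sf2, Scarb1, Abca1, Srebf1 and Insig1) have no promoter peak by them. All 7 have a peak in the annotation's promoter class for the gene or over a RefSeq window, so their lack of a promoter sum is not a lack of open chromatin at a start. Taking these definitions in place of the distance, a choice made after the data were seen, gave 50 peaks at starts of 31 genes, all but Acsl5. Of these peaks 49 were tested and 0 called, where 1.44% of all promoter peaks and 1.59% of all distal peaks were. With the replicate block 3 were called, at Pnpla2, Abcg8 and Tm6sf2, where 2.62% of all promoter peaks and 3.09% of all distal peaks were. The Abca1 start peak, which the table assigns to another transcript (chromosome 4, 53159847 to 53160206), had 6.84, 7.10 and 7.27 CPM in aged libraries and 6.00, 6.09 and 6.69 CPM in young libraries. These stood apart by age, with a log2 fold change of 0.19 that was not called (edgeR adjusted p = 0.869). The Insig1 start peak had 57.4, 48.3 and 44.8 CPM in aged libraries and 56.3, 48.0 and 40.1 CPM in young libraries, and the Srebf1 start peak at -7907 bp had 37.1, 33.5 and 32.1 CPM in aged libraries and 39.5, 31.6 and 28.8 CPM in young libraries. For Mttp the peak over the RefSeq start is assigned to the neighbouring gene Trmt10a, and it had 72.0, 65.4 and 57.2 CPM in aged libraries and 75.2, 66.7 and 67.7 CPM in young libraries. The ages overlapped at all 3 of these peaks.

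Among other genes of the same pathways no sum was called. Across 106 further genes of uptake, lipoprotein assembly, droplets, cholesterol synthesis, sterol traffic and fatty acid synthesis, 0 of 66 tested promoter sums and 0 of 86 tested distal sums were called. An unadjusted p below 0.05 was found at 7 of 66 promoter sums, against 8.92% of all genes, and at 5 of 86 distal sums, against 9.68%. With the replicate block 0 promoter sums were called, against 3.34% of all genes, and 2 distal sums, Mvk and Scd2, against 4.56%. Their median log2 fold changes were 0.0052 at promoters and 0.0042 at distal peaks, beside -0.0016 and -0.0034 over all genes. In lipoprotein assembly, 4 of 11 promoter sums had an unadjusted p below 0.05, in both directions, where 8.92% of all genes did. P4hb, the disulfide isomerase subunit of the Mttp complex, averaged 341 ± 10.8 CPM in aged and 379 ± 17.5 CPM in young libraries, and Mia2, a cargo receptor partner for large lipoproteins, averaged 79.8 ± 3.08 CPM in aged and 69.5 ± 5.61 CPM in young libraries. The ages did not overlap at either, yet neither was called (edgeR adjusted p = 0.288 and 0.391). The very-low-density lipoprotein receptor gene Vldlr averaged 21.6 ± 2.58 CPM in aged and 27.4 ± 2.20 CPM in young libraries (edgeR adjusted p = 0.439).

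In uptake and reesterification, 1 of 13 further promoter sums had an unadjusted p below 0.05, Prap1, with 56.3 ± 8.58 CPM in aged and 46.2 ± 5.204 CPM in young libraries (edgeR adjusted p = 0.552). Agpat4 (log2 fold change 0.22) and Slc27a1 (0.28) came next. In droplets and lipolysis it was 1 of 9, Pnpla3, a lipase relative of Pnpla2, with 48.9 ± 4.28 CPM in aged and 56.4 ± 4.999 CPM in young libraries (edgeR adjusted p = 0.548). G0s2, the inhibitor of the Pnpla2 lipase, had a log2 fold change of 0.24 and the droplet coat gene Plin5 one of 0.16. In fatty acid synthesis it was 1 of 10, the elongase Elovl1, with 163 ± 3.71 CPM in aged and 140 ± 17.3 CPM in young libraries (edgeR adjusted p = 0.35), followed by the desaturase Scd1 at -0.54 and the carboxylase Acacb at -0.08.

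No gene reached that level among 9 promoters of cholesterol synthesis, where the smallest p belonged to Cyp51 (log2 fold change 0.10), Tm7sf2 (-0.08) and Sqle (0.07). None did among 14 promoters of sterol sensing and traffic, among them Nr1h2 (-0.13) and Npc2 (-0.07). The distal sum with the smallest p of all these genes was that of Mvk, mevalonate kinase of cholesterol synthesis. It had 41.1, 35.7 and 34.6 CPM in aged libraries and 25.0, 30.8 and 30.1 CPM in young libraries, all aged above all young. The log2 fold change was 0.38 (SE 0.12; edgeR adjusted p = 0.148), called with the replicate block (edgeR adjusted p = 0.0257). The distal sum of the desaturase Scd2, at 88.0, 101.5 and 100.2 CPM in aged libraries and 114, 112 and 112 CPM in young libraries, had a log2 fold change of -0.22 (SE 0.09; edgeR adjusted p = 0.307) and was also called with the block (edgeR adjusted p = 0.0349).

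Checked against the labelled epithelium, 8 of 10 epithelial, 6 of 12 enterocyte, 6 of 10 fibroblast and muscle, 2 of 8 endothelial and 1 of 16 leukocyte markers had a promoter peak. Distal peaks were tested at 8 of 16 leukocyte and 8 of 10 fibroblast and muscle markers. Summed promoter counts were 860.0 to 894 CPM in aged and 897 to 926 CPM in young libraries for the 8 epithelial markers, and 79.7 to 91.8 CPM in aged and 76.5 to 84.0 CPM in young libraries for 5 fibroblast and muscle markers. Of the 8 epithelial promoters, 2 had log2 fold changes above 0 and 6 below. Distal sums of 10 epithelial markers were 3356 to 3768 CPM in aged and 3046 to 3620 CPM in young libraries. Of these, 8 had log2 fold changes above 0 and 2 below. In bulk libraries fewer cells of a type and less signal per cell cannot be told apart. Summed promoter counts of 6 enterocyte markers were 323 to 363 CPM in aged and 328 to 354 CPM in young libraries, and those of 9 proximal intestine markers 687 to 736 CPM in aged and 697 to 724 CPM in young libraries, with 0 of either called. Distal sums of 8 leukocyte markers were 44.1 to 49.2 CPM in aged and 41.6 to 43.9 CPM in young libraries. Within these, Cd8a had 1.496, 1.87 and 3.61 CPM in aged and 0.559, 0.599 and 1.34 CPM in young libraries (edgeR adjusted p = 0.0566, and 0.0181 with the replicate block). Distal sums of 7 tuft cell markers were 318 to 343 CPM in aged and 279 to 298 CPM in young libraries. Called markers were 1 of 8 enteroendocrine promoters, Isl1, and 1 of 2 promoters of the endothelial list, Prox1, both lower in aged libraries. Over all genes, 1.74% of promoter sums were called. Of the 8 enteroendocrine promoters, 3 had log2 fold changes above 0 and 5 below. With the replicate block the distal sums of the tuft cell marker Sh2d6 (log2 fold change 0.21), the fibroblast and muscle marker Pdgfrb (0.39), the endothelial markers Prox1 (-0.91) and Cdh5 (-0.36) and the proximal intestine marker Onecut2 (-0.25) were called as well, with edgeR adjusted p-values of 0.0124, 0.037, 0.0104, 0.0345 and 0.00695, against 0.312, 0.205, 0.0659, 0.565 and 0.213 without it. With the block, 4.56% of all distal sums were called. Distal log2 fold changes were above 0 at 5 and below 0 at 3 of 8 fibroblast and muscle markers. They were above 0 at 4 and below 0 at 3 of 7 endothelial markers. For 10 proximal intestine markers these numbers were 6 and 4, and all 7 tuft cell markers were above 0. The part of cell composition in the fat and sterol gene results was not tested.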

How the data were processed

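ATAC-seq was run on sorted small intestinal epithelium of aged and young mice, as 24 sample records that are 4 lanes of each of 6 libraries (3 per age). Each library was treated as 1 replicate. Raw counts per consensus peak, with 1 column per library, and the annotation of each peak with its gene and distance to a start were deposited by the authors. Per the submitters' processing notes, tools included Trim Galore 0.6.4, BWA 0.7.17-r1188, Picard 2.23.1, SAMtools 1.10, MACS2 2.2.7.1, bedtools 2.29.2 and featureCounts 2.0.1, with settings not given in the sources used here. Coordinates are GRCm38.

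The counts were fitted whole, at 150646 peaks and as sums per gene over promoter and distal peaks, with edgeR 4.0.16 in R 4.3.3: low-count filter, TMM scaling, robust quasi-likelihood test with age alone, Benjamini-Hochberg adjustment over all features tested, called at an adjusted p below 0.05. SE is the log2 fold change divided by the root of F. CPM are scaled within each of the 3 tables. The fitting code was tested on simulated data. Counts per library, 6149680 to 23935291, set the precision, and every pair of libraries differed by more than sampling noise.

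Same-numbered libraries correlated in their deviations from the age means (0.236, 0.182 and 0.123, all above 0.1), against -0.194 to 0.0287 for other pairs. Deviations within an age cancel, so positive values at same-numbered pairs lower those at other pairs, and the contrast is not separate support. By the criterion of 0.1 the numbers were taken to pair libraries, although no label says what a number marks.

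The genes, lists and tests were chosen with earlier results of these data known. Values of every library were given for called features, for gene sums with an unadjusted p below 0.05, for the 2 smallest-p promoter sums and distal peaks per role, and for the 3 highest and 3 lowest promoters per kilobase. In each list of other pathway genes up to 3 promoter sums with the smallest p were named, and 1 such result is not reported here. Other peaks named were chosen after their values were seen. Alternatives were DESeq2 1.42.0, its size factors, no count filter, the replicate block, each library left out, narrower distances and a threshold of 0.1. Sequences are from RefSeq.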

Additional observations from a re-analysis of the deposited data

How the results depend on the processing

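Each age had 3 libraries, and the median over all peaks was 13 to 49 counts per library, which limits the precision at single peaks. The 24 single values given in full kept direction and side of the threshold under DESeq2's test, DESeq2 size factors and no count filter. The replicate block took promoter peaks called higher to 2 (main value 0), distal peaks called higher to 4 (main value 1) and lower to 1 (main value 0), promoter sums called higher to 1 and distal sums called higher to 2 (main value 0 for both). Among the peaks and sums of these genes and the sums of the pathway and marker lists, it changed no call other than those named with it in the report. At an adjusted p below 0.1 there were 1 promoter peak, 1 promoter sum and 1 distal sum called higher. Within 20000 bp there were 0 distal peaks called higher. Leaving out each library gave 0 to 1 promoter peaks called higher (1 without aged 2), 0 to 4 distal peaks (2 without aged 2, 4 without young 1, 0 without aged 4 or young 2), 0 to 1 promoter sums (1 without young 1) and 0 to 1 distal sums (1 without aged 2 or young 1). Medians of the sums ranged from -0.0357 to 0.0279 at promoters and from -0.0184 to 0.111 at distal peaks when each library was left out. Signs turned for the Plin3 distal peak at 1016 bp (-0.167 to 0.0257 over the libraries left out), the Apoc2 promoter sum (-0.000195 with the replicate block, -0.0605 to 0.116 over the libraries left out) and the Srebf2 promoter sum (-0.00325 to 0.105 over the libraries left out). None of these was called, and the cause was not tested. Over all peaks, 1393 were called higher and 684 lower, against 786 and 456 by DESeq2 and 2578 and 1420 with the replicate block. The fit without young 2 called 742 higher and 474 lower.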
